A study of Rattus norvegicus with 77 samples.

Results

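The 10 genes described here encode proteins of the junctions by which Sertoli cells hold developing germ cells and each other, together with the actin regulators that shape those junctions. They were Abi2 and Abi1 (subunits of the WAVE complex), Cadm1, Nectin2 and Nectin3 (adhesion molecules of the immunoglobulin superfamily), Tjp1 and Ocln (tight junctions), Gja1 (gap junctions), Cdh2 (a classical cadherin) and Espn (actin bundles). Each was read from the probe set (the group of probes for 1 transcript) whose only gene symbol in the platform annotation was the member, and each had 1 such probe set, so that the members were 10 of 29214 probe sets, of which 15310 carried 1 symbol. The list was set by gene name, but it was chosen with earlier results of these data known. Abi2 had been picked by the study as a candidate from these same arrays, so its result is not independent evidence.

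Sperm RNA of 77 adult male Fischer 344 rats was measured with Affymetrix arrays that cover whole rat transcripts, and each rat had its own array. The HD group (n = 19) drank 0.33% 2,5-hexanedione (HD), a toxicant of Sertoli cells, for 3 months and was killed then, and the water group (n = 20) drank water for the same time. The HD-recovery group (n = 20) had the same exposure followed by 3 months without HD, and the water-recovery group (n = 18) was its control of the same age, so rats of both recovery groups were 3 months older when killed. Sperm were let out of punctured cauda epididymides and passed through an ammonium chloride lysis buffer, and every value is that of the RNA of the sperm and of any other cell that was left.

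In the seminiferous epithelium the ectoplasmic specialization, an actin-rich junction found in the testis, anchors elongating spermatids to Sertoli cells and forms part of the blood-testis barrier between neighbouring Sertoli cells. Nectins and cadherins join the membranes of the cells, tight junction proteins seal them, connexins couple them, and bundled and branched actin lies beneath. The junctions are taken apart when spermatids are released, and most of their proteins are also made in other epithelia and in blood cells, so a transcript named for a junction does not mark a Sertoli cell.

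Values are the log2 values of the deposited table, which ran from 2.51 to 14.63, and a log2 fold change is the mean of the exposed arrays minus that of their controls, by their labels. Array medians lay between 6.51 and 6.78 in all groups. Transcripts were called altered at q under 0.05 (limma with Storey's q over all 29214 probe sets). By their median correlation with the other arrays of their group, 10 arrays stood apart from the rest: HD replicates 3, 4, 5 and 14, water replicate 20, HD-recovery replicates 2, 9 and 16, and water-recovery replicates 12 and 15. All were kept, and results are given with and without them. The array of HD replicate 5 was the farthest, at a median correlation of 0.83. Of the marker lists used to check the samples, the sperm and spermatid list had Smcp (a protein of the sperm mitochondrial capsule) as its brightest probe set, with a mean of 14.04, and the leukocyte list had Cd74 (the invariant chain of antigen presentation), with a mean of 10.77. The mean of the 16 Sertoli cell markers was 6.86 ± 0.11 in HD arrays and 6.77 ± 0.07 in water arrays, and all 19 HD arrays lay above the water median. Their median log2 fold change was 0.01, with 10 above 0 and 6 below. The 1 altered marker, Clu (a secreted chaperone), had the highest (1.11, q = 0.0224 from limma). Clu is part of that mean, and the mean without it is not given. For Clu, Abi2, Dcn, Lyz2 and Strbp the direction between HD and water arrays by the labels is the reverse of that in the array list of the study. The reversal goes beyond these genes. Most well-annotated altered transcripts of that list are reported as elevated in treated sperm, while most altered probe sets here were lower in arrays labelled HD. Whether the labels or that list are turned is not settled, and the PCR measurements of the study, made in other rats, do not all run one way. In those measurements Abi2 was not among the transcripts reported as altered after HD at any time. It was reported as raised after another Sertoli cell toxicant, carbendazim. Every direction between HD and water arrays given here, including that of the 133 lower and 5 higher altered probe sets, rests on the labels and would turn with them. The comparisons across times use the same labels and rest on them too. In these, 0.154% of all probe sets were altered for HD-recovery against HD and 0% for water-recovery against water. What this means for the labels was not tested. In bulk RNA of this kind, fewer cells of a type and less RNA per cell cannot be told apart.

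Abi2, which encodes a subunit of the WAVE complex that switches on branched actin through Arp2/3, was the 1 member that differed at the end of exposure. Its log2 values ran from 6.64 through a median of 7.29 to 8.60 in arrays labelled HD, against 7.26, 8.12 and 8.81 in arrays labelled water. All but 2 of the 19 HD arrays fell under the median of the water arrays and 8 under the lowest of them, but the groups overlapped. The means were 7.43 ± 0.52 in HD arrays and 8.12 ± 0.49 in water arrays (SD, n = 19 and 20), a log2 fold change of −0.69 (SE 0.16, 95% interval −1.003 to −0.374), or 1.61-fold lower in HD arrays (q = 0.0265 from limma). Abi2 thus made 1 of 10 members altered at the end of exposure, where 0.472% of all probe sets were altered. The call ended with array medians centred (−0.69, q = 0.0603 from limma), with the mean of the leukocyte markers as a covariate (−0.15, q = 0.191) and in 6 of 39 fits that left out 1 array each (q 0.0504 to 0.0527). None of the other 9 was altered or had an unadjusted p under 0.05, which 8.3% of all probe sets had.

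After recovery the Abi2 values of the 2 groups ran together. They were 6.81, 8.06 and 8.67 (lowest, median and highest) in HD-recovery arrays, against 7.22, 7.88 and 8.91 in water-recovery arrays, and 12 of 20 HD-recovery arrays lay above the water-recovery median. The means were 7.92 ± 0.61 in HD-recovery arrays and 7.95 ± 0.44 in water-recovery arrays (SD, n = 20 and 18), a log2 fold change of −0.03 with a 95% interval of −0.37 to 0.30 (q = 1 from limma). Ordered by mean, water arrays were followed by water-recovery, HD-recovery and HD arrays. None of the neighbours in this order differed at q under 0.05. Water-recovery minus water was −0.17 (q = 0.891) and HD-recovery minus HD was 0.48 (SE 0.16, p = 0.00389, q = 0.207 from limma). The test of whether the HD effect at the end of exposure differed from that after recovery gave −0.65 (SE 0.23, p = 0.00612, q = 1 from limma), which did not pass when corrected over all probe sets.

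**Figure D1:**
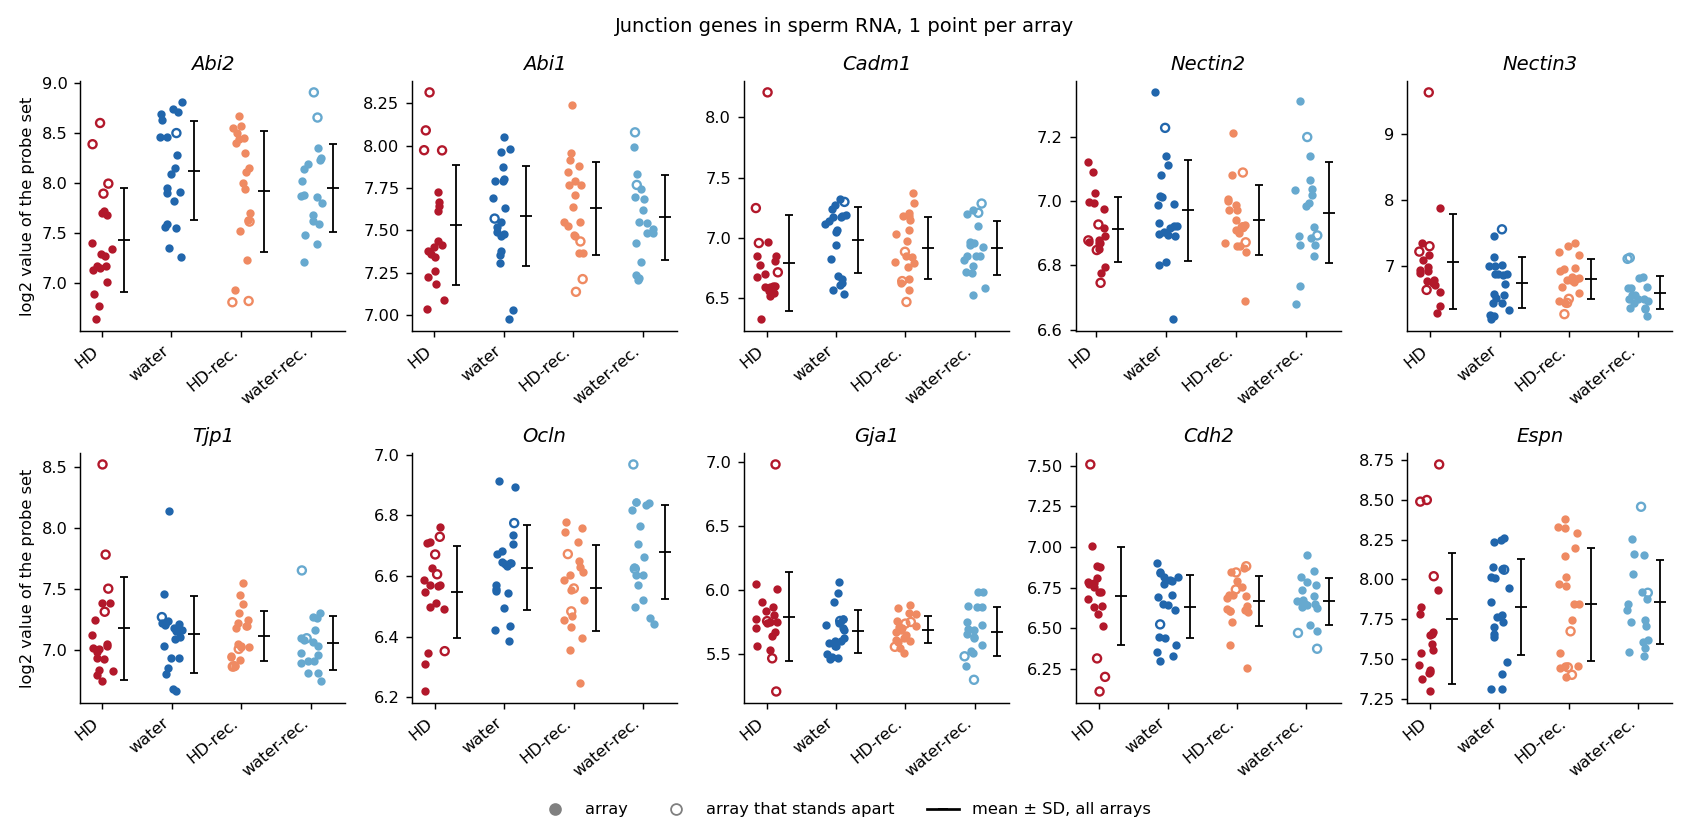
Log2 value (y axis, own scale in each panel) of the 10 junction genes in every array of the HD, water, HD-recovery and water-recovery groups (x axis). Points are arrays, open points are the 10 arrays that stood apart, and bars are means ± SD of all arrays. For Abi2, 17 of the 19 HD arrays lie below the water median and 8 below all water arrays, and 1 HD array, replicate 5, lies far above all others for Cadm1, Nectin3, Gja1 and Cdh2.

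Abi1, the paralogue of Abi2 in the same complex, did not move with it between the groups. It ran from 7.04 through 7.41 to 8.31 in HD arrays, against 6.97, 7.56 and 8.05 in water arrays. The ranges overlapped almost wholly, and 11 of 19 HD arrays were under the median of the water arrays. The log2 fold change was −0.05 (95% interval −0.26 to 0.15, q = 0.98 from limma) at the end of exposure and 0.05 (−0.12 to 0.22, q = 1) after recovery, where the means were 7.63 ± 0.27 in HD-recovery arrays and 7.58 ± 0.25 in water-recovery arrays.

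The proximal promoters of these paralogues are printed as a description, and no link between their sequence and the array values was tested. They are the RefSeq windows of the GRCr8 assembly of 300 bases around the annotated start, with capitals marking the GC box GGGCGG or its reverse complement CCGCCC. The Abi2 window is chr9:69320955-69321254 on the + strand and the Abi1 window is chr17:90087778-90088077 on the - strand.
Abi2: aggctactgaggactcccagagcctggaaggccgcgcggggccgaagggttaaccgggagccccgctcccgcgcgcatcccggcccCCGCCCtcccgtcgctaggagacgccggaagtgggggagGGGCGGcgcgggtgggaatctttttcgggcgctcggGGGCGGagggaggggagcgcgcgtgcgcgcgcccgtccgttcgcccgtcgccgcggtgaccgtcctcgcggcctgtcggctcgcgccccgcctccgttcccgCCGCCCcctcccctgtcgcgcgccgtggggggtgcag
Abi1: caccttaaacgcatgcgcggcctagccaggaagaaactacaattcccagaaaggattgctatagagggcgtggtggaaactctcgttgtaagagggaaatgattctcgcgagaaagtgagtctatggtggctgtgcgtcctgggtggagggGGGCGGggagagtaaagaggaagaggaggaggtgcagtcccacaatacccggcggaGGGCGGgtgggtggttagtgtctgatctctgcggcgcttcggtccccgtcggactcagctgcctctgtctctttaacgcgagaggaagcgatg

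The Abi2 window held 4 GC boxes, 49 CpG dinucleotides and 78.0% G and C, and the Abi1 window held 2 GC boxes, 20 CpG dinucleotides and 57.3% G and C. Neither held a TATAAA box on either strand. Of the 10 members, 7 had a window in the table, and 4 of these (Abi2, Abi1, Nectin3 and Espn) held a GC box, as did 33.1% of all 33469 windows of the same length. The Nectin3 window held 5, but the windows of Nectin3, Tjp1 and Ocln lay inside the gene and did not hold its outermost annotated start. A match of these letters is a description of the window, and the start that sperm RNA uses was not measured.

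Among the adhesion molecules, Cadm1, by which mouse spermatogenic cells adhere to Sertoli cells, did not pass the test, although most arrays labelled HD had low values. Its values were 6.32, 6.70 and 8.21 (lowest, median and highest) in HD arrays, against 6.53, 7.09 and 7.32 in water arrays. As for Abi2, 17 of 19 HD arrays were under the median of the water arrays, while 1, replicate 5, was above every water array. The log2 fold change was −0.19 (SE 0.11, 95% interval −0.40 to 0.02, q = 0.701 from limma), and without HD replicate 5 it was −0.27 (q = 0.068). After recovery the means were 6.92 ± 0.26 in HD-recovery arrays and 6.92 ± 0.22 in water-recovery arrays, a difference of 0.00 (95% interval −0.15 to 0.16).

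Nectin2, the nectin that Sertoli cells of the mouse carry, varied little. It ran from 6.75 through 6.88 to 7.12 in HD arrays, against 6.63, 6.93 and 7.34 in water arrays, and all HD arrays lay within the water range. The difference was −0.06 on the log2 scale (95% interval −0.15 to 0.03, q = 0.872 from limma) at the end of exposure and −0.02 (−0.11 to 0.07, q = 1) after recovery.

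Nectin3, the partner of Nectin2 on mouse spermatids, was the member with the widest range. Its values were 6.29, 6.93 and 9.62 in HD arrays, against 6.20, 6.80 and 7.56 in water arrays. The groups overlapped, and the highest HD array, replicate 5, was far above the next, at 7.87. The log2 fold change was 0.32 (SE 0.17, 95% interval −0.03 to 0.67, q = 0.687 from limma), and without HD replicate 5 it was 0.18 (q = 0.395).
In the recovery groups Nectin3 ran from 6.28 through 6.80 to 7.35 in HD-recovery arrays, against 6.24, 6.54 and 7.13 in water-recovery arrays. Of the 20 HD-recovery arrays, 15 lay above the water-recovery median and 4 above the highest water-recovery array. The log2 fold change was 0.21 (SE 0.09, 95% interval 0.03 to 0.38, p = 0.0225, q = 1 from limma), so the difference was not called. It moved with the sperm and spermatid markers: their mean over the list was 10.04 ± 0.43 (9.30 to 10.7) in HD-recovery arrays and 9.77 ± 0.27 (9.37 to 10.3) in water-recovery arrays. With that mean as a covariate, an alternative chosen after the data had been seen, the log2 fold change of Nectin3 was 0.04 (q = 0.904).

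Neither tight junction gene was altered. Tjp1, a scaffold that ties tight junction proteins to actin, ran from 6.75 through 7.04 to 8.52 in HD arrays, against 6.66, 7.16 and 8.14 in water arrays. Each group had 1 array far above its others, which was replicate 5 in both. Its log2 fold change was 0.05 (95% interval −0.18 to 0.28, q = 0.986 from limma), −0.02 without HD replicate 5 and −0.10 without all arrays that stood apart, so it had no settled direction.

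Ocln, a membrane protein of the tight junction strand, varied little within each group. Its values were 6.22, 6.57 and 6.76 in HD arrays, against 6.38, 6.64 and 6.91 in water arrays. For 14 of the 19 HD arrays the value was under the median of the water arrays, and the log2 fold change was −0.08 (95% interval −0.18 to 0.02, q = 0.757 from limma). After recovery it ran from 6.25 through 6.57 to 6.78 in HD-recovery arrays, against 6.44, 6.65 and 6.97 in water-recovery arrays. Again 14 arrays, of 20, lay below the control median, and the log2 fold change was −0.12 (SE 0.05, 95% interval −0.22 to −0.02, p = 0.0212, q = 1 from limma). The sign was the same in all 39 fits that left out 1 array at the end of exposure and in all 38 after recovery, and no call was made in any of them. Such fits share nearly all their arrays, so they are not separate evidence of a direction. With Nectin3, Ocln made 2 of 10 members with an unadjusted p under 0.05 after recovery, against 4.51% of all probe sets, and at q under 0.05 no member and 0% of all probe sets passed.

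Gja1, the main connexin of Sertoli cells, ran from 5.21 through 5.75 to 6.98 in HD arrays, against 5.46, 5.66 and 6.07 in water arrays. Its mean over all arrays, 5.71, was below the 25th percentile of probe set means, 6.10, and the table gives no detection call, so whether its signal exceeds background is not known. Although 14 of 19 HD arrays were above the median of the water arrays, the log2 fold change was 0.11 (95% interval −0.06 to 0.28, q = 0.869 from limma), and 0.05 without HD replicate 5. After recovery it was 0.02 (−0.09 to 0.12, q = 1), with means of 5.69 ± 0.11 in HD-recovery arrays and 5.67 ± 0.19 in water-recovery arrays.

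Cdh2, the neural cadherin that Sertoli and germ cells share, ran from 6.11 through 6.72 to 7.51 in HD arrays, against 6.30, 6.67 and 6.90 in water arrays. HD arrays held both the highest and the lowest values, and 2 lay above and 2 below all water arrays. The difference was 0.07 on the log2 scale (95% interval −0.09 to 0.23, q = 0.967 from limma), and 0.02 without HD replicate 5. After recovery it was 0.00 (−0.10 to 0.10, q = 1).

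Espn, the espin that bundles actin in the ectoplasmic specialization, ran from 7.30 through 7.65 to 8.72 in HD arrays, against 7.31, 7.81 and 8.26 in water arrays. The values of 13 of the 19 HD arrays were under the median of the water arrays, and the 3 above the highest water array were replicates 3, 4 and 5, all among those that stood apart. The difference was −0.07 on the log2 scale (95% interval −0.30 to 0.15, q = 0.979 from limma) at the end of exposure and −0.02 (−0.22 to 0.18, q = 1) after recovery. Over the other contrasts no member was altered: 0% of all probe sets passed for water-recovery against water and for the difference of the HD effects, and 0.154% for HD-recovery against HD. The 9 members other than Abi2 lay between −0.26 and 0.12 for HD-recovery minus HD, and between −0.19 and 0.11 for the difference of the HD effects.

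The arrays that stood apart held extreme values of several members, and they decided how many were called. All 4 such HD arrays lay above the HD median for Abi2, Abi1, Cadm1, Tjp1 and Espn, with Abi2 between 7.90 and 8.60, and all 3 such HD-recovery arrays lay below their group's median for Abi2, Abi1, Nectin3, Tjp1 and Espn. Without the 10 arrays the mean of Abi2 was 7.22 ± 0.32 in HD arrays and 8.10 ± 0.50 in water arrays (SD, n = 15 and 19), a log2 fold change of −0.88 (limma, q = 9.64e-05). Cadm1 (−0.30, q = 0.00425), Espn (−0.24, q = 0.02) and Abi1 (−0.20, q = 0.0412) were then altered as well. These 4 of 10 members stand beside 30.2% of all probe sets altered in that fit, a share near that of the members. All 4 HD arrays left out were above the HD median for these 4 genes, so leaving them out lowers the HD means by construction. With all arrays kept but weighted by their quality, Abi2, Cadm1 and Espn were altered, 3 of 10 members beside 17.7% of all probe sets.

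After recovery the same leaving out made Nectin3 altered (0.34, q = 0.00377 from limma), 1 of 10 members beside 13.1% of all probe sets, and with array weights it was altered too (0.29, q = 0.0334), beside 1.8%. Abi2 was 8.07 ± 0.51 in the HD-recovery arrays left and 7.85 ± 0.33 in the water-recovery arrays left, a log2 fold change of 0.22 (q = 0.132) whose sign differed from that with all arrays. For the difference of the HD effects, 6 of 10 members were altered without the arrays that stood apart, beside 56.8% of all probe sets, and 4 with array weights, beside 33.7%. For HD-recovery against HD, 5 were altered beside 57.4%, and 4 beside 45.2%. Leaving out arrays that were high in HD and low in HD-recovery widens such differences by construction for Abi2. The same holds for Nectin3 after recovery. The HD-recovery arrays left out were low for it (6.28 to 6.51), and the water-recovery arrays left out were the highest of their group (7.11 and 7.13). For Abi2 these arrays were likewise low (6.81 to 7.62) and high (8.66 and 8.91), so its change of sign after recovery follows from the arrays left out.

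**Figure D2:**
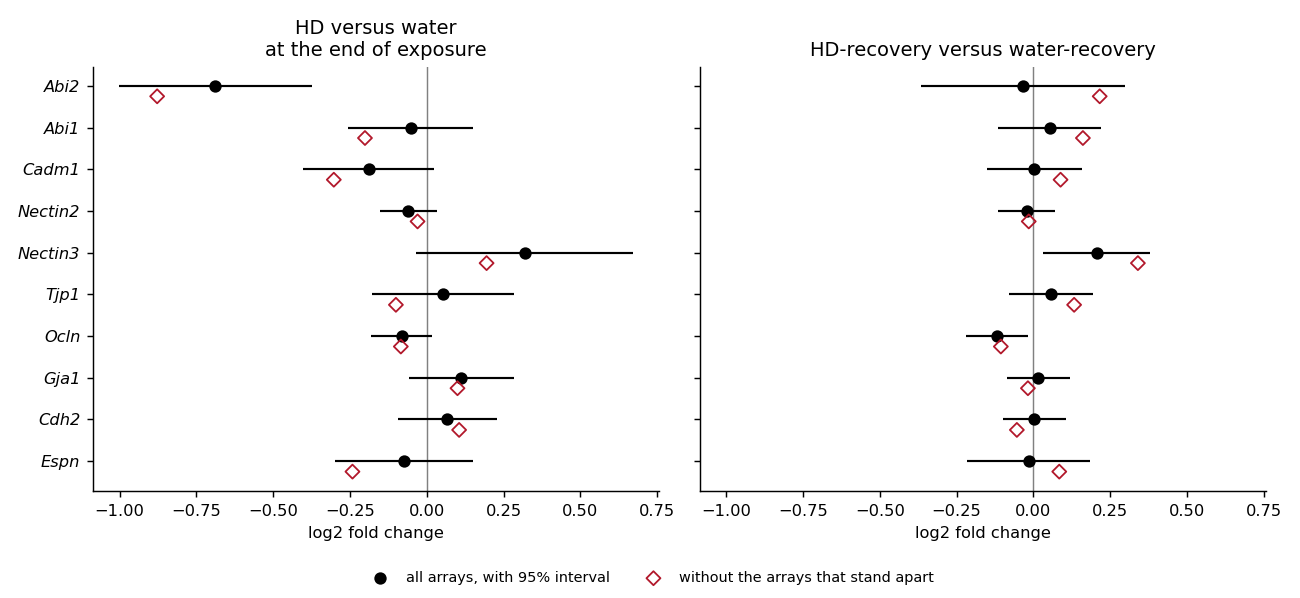
Log2 fold change (x axis) of the 10 junction genes (y axis) for HD versus water and for HD-recovery versus water-recovery. Black points and lines are estimates and 95% intervals from all arrays, and open diamonds are the estimates without the 10 arrays that stood apart. Abi2 at the end of exposure, at −0.69, is the estimate farthest from 0, and its recovery estimate lies at −0.03.

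HD replicate 5 stood outside the range of the other 76 arrays for 7 of the 10 members, always above it. Nectin3 was 9.62 there against 6.20 to 7.87 elsewhere, Cadm1 was 8.21 against 6.32 to 7.37, and Gja1 was 6.98 against 5.21 to 6.07. Cdh2 was 7.51 against 6.11 to 7.00, Tjp1 8.52 against 6.66 to 8.14, Espn 8.72 against 7.30 to 8.50 and Abi1 8.31 against 6.97 to 8.24. Abi2, Nectin2 and Ocln lay within the range. The marker means of that array moved with these values: spermatocytes 8.31 against 6.35 to 6.93 in the others, sperm and spermatids 11.4 against 9.10 to 10.8, and Sertoli cells 7.30 against 6.64 to 6.99. The fibroblast mean was below all others, at 6.54 against 6.82 to 7.83, and the leukocyte mean was within their range. The part of other cells in these values was not tested.

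Arrays of 1 group differed in a shared way. The counts of relations below have no share over all probe sets beside them, so they do not set the members apart. With the group means removed, 41.9% of the variance of all probe sets lay on 1 principal component, and 8 of the 10 members correlated with it at an adjusted permutation p under 0.05, Abi2 the closest (Pearson's r = 0.90, Spearman's rho = 0.93, permutation p = 1e-05 for both, adjusted p = 1.7e-05 and 1.4e-05 over the 10 relations). Of the 45 pairs of members, 22 correlated at an adjusted permutation p under 0.05 (permuted within groups, 77 arrays, 100000 draws, of which the smallest possible p is 1e-05), 19 positively and 3 negatively, and all 22 kept their sign without the arrays that stood apart. Abi2, Abi1, Cadm1, Tjp1 and Espn varied together: all 10 of their pairs had r between 0.52 and 0.77, and between 0.33 and 0.73 without the arrays that stood apart. Cadm1 lost the most, with r = 0.38 against Tjp1 (0.62 with all arrays, 0.23 among water arrays) and 0.33 against Espn (0.52 with all arrays). Abi2 and Abi1 correlated at r = 0.77 and rho = 0.78 (permutation p = 1e-05 for both, adjusted p = 4.1e-05 and 3.8e-05), at r = 0.75 without the 2 arrays farthest from the median of Abi1, and between 0.72 and 0.85 within each group. Abi2 and Cadm1 correlated at r = 0.74 and rho = 0.78 (p = 1e-05 for both, by permutation), and between 0.66 and 0.89 within each group. Cdh2 ran the other way: its r with Abi2 was −0.50 (rho = −0.61, p = 1e-05 for both, by permutation), −0.71 without the 2 arrays farthest from the median of Cdh2, and between −0.79 and −0.25 within each group. Gja1 and Cdh2 correlated at r = 0.57 (rho = 0.31, permutation p = 3e-05 and 0.0083), but at 0.20 without the arrays that stood apart, so the relation rested on few arrays. Nectin2 and Ocln had no r above 0.36 with any member.

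**Figure D3:**
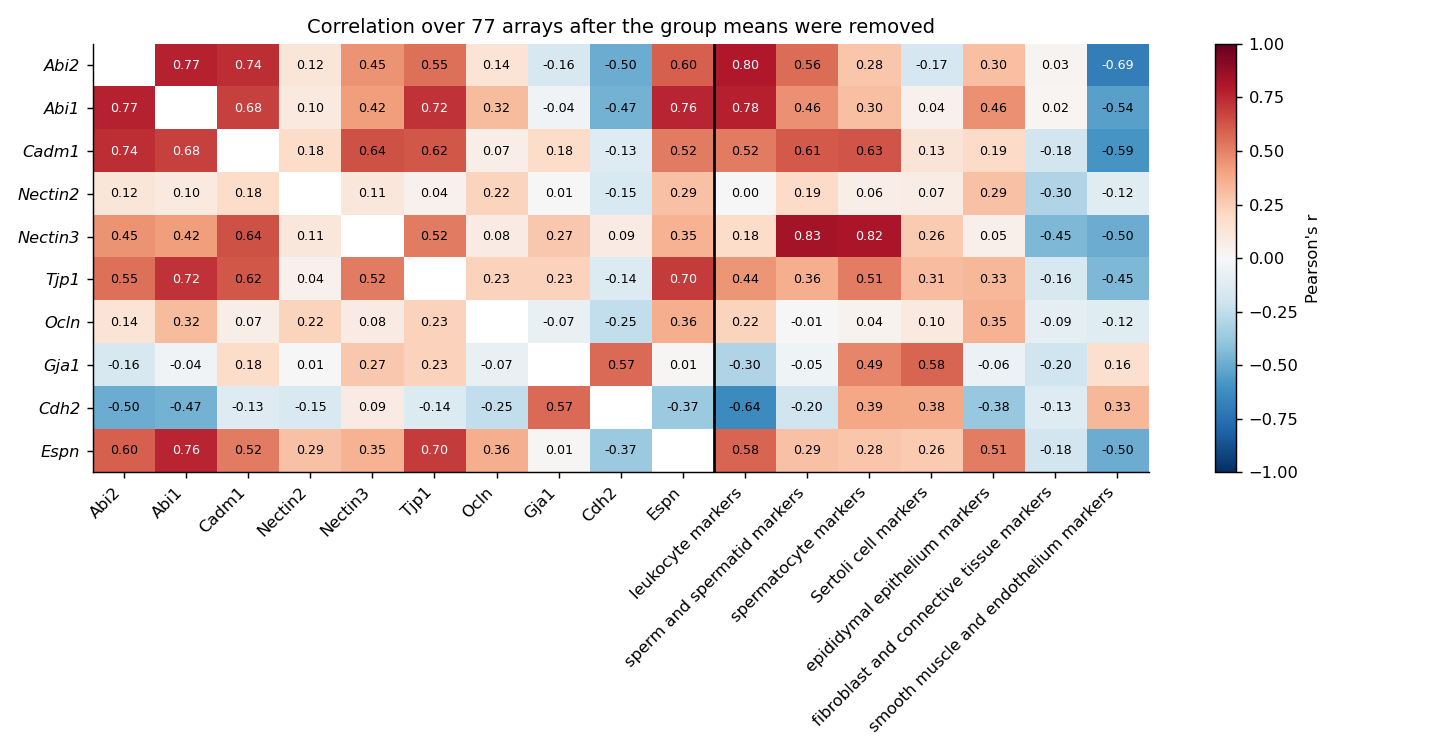
Pearson's r over 77 arrays, with group means removed, between the 10 junction genes (rows) and each other or the mean of each marker list (columns, right of the black line). Red is positive and blue negative, and the number is r. Abi2, Abi1, Cadm1, Tjp1 and Espn form a block of positive values, Cdh2 is negative against Abi2, Abi1 and Espn, and Nectin3 has 0.83 with the sperm and spermatid markers.

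Of the 70 relations between a member and the mean of a marker list, 36 had an adjusted permutation p under 0.05. The share over all probe sets is not given for this count either. Abi2 followed the leukocyte markers (r = 0.80, rho = 0.81, permutation p = 1e-05 for both, adjusted p = 4.7e-05 for both, r = 0.83 without the 2 arrays farthest from the median of the markers, and 0.71 to 0.88 within each group). Abi1 did so too (r = 0.78, rho = 0.82, permutation p = 1e-05 for both), and Cdh2 ran against them (r = −0.64, rho = −0.63, permutation p = 1e-05 for both). The leukocyte markers also differed between the groups: their mean was 7.57 ± 0.28 (7.27 to 8.25) in HD arrays and 7.91 ± 0.24 (7.41 to 8.32) in water arrays, 18 of the 20 had a log2 fold change below 0, and 5 were altered, all lower in arrays labelled HD (Cx3cr1, Ccr2, Cd4, Lyz2 and Fcer1g). With the leukocyte mean as a covariate the log2 fold change of Abi2 was −0.15 (q = 0.191 from limma) and that of Abi1 was 0.27 (q = 0.0196), where 6.42% of all probe sets were altered, 1422 higher and 454 lower. Abi2 itself is expressed in many cell types, and the part of leukocyte RNA in its difference was not tested beyond this fit.

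Nectin3 followed the sperm and spermatid markers (r = 0.83, rho = 0.88, permutation p = 1e-05 for both, adjusted p = 4.7e-05 for both), at 0.88 without the 2 arrays farthest from their median, at 0.85 without the arrays that stood apart and between 0.80 and 0.89 within each group. With the spermatocyte markers it had r = 0.82 and rho = 0.60, and 0.60 without the 2 farthest arrays. Its r with the leukocyte markers was 0.18 (rho = 0.33, permutation p = 0.093 and 0.0031). At the end of exposure the sperm and spermatid mean was 10.19 ± 0.49 (9.19 to 11.4) in HD arrays and 9.98 ± 0.47 (9.10 to 10.8) in water arrays, while 13 of its 19 markers had a log2 fold change above 0 (median 0.24), 8 were higher and 5 lower at an unadjusted p under 0.05, and the 1 altered marker, Odf1, was lower (−0.22, q = 0.0445 from limma). With that mean as a covariate, chosen after the data had been seen, the log2 fold change of Abi2 was −0.82 (q = 5.87e-05 from limma), that of Cadm1 was −0.29 (q = 0.0242) and that of Nectin3 was 0.11 (q = 0.371). In that fit 3.91% of all probe sets were altered. Espn was the member closest to the epididymal epithelium markers (r = 0.51, rho = 0.59, permutation p = 1e-05 for both, r = 0.52 without the 2 arrays farthest from their median), followed by Abi1 (r = 0.46, rho = 0.47, permutation p = 4e-05 and 6e-05, r = 0.37 without the 2 farthest) and Ocln (r = 0.35, rho = 0.37, permutation p = 0.0014 and 0.0011, r = 0.32 without the 2 farthest). The mean of these markers was 6.91 ± 0.18 in HD arrays and 6.89 ± 0.13 in water arrays, and none of the 20 was altered. Gja1 was the member closest to the Sertoli cell markers (r = 0.58, rho = 0.30, permutation p = 0.00079 and 0.011), but its r was 0.17 without the 2 arrays farthest from their median.

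**Figure D4:**
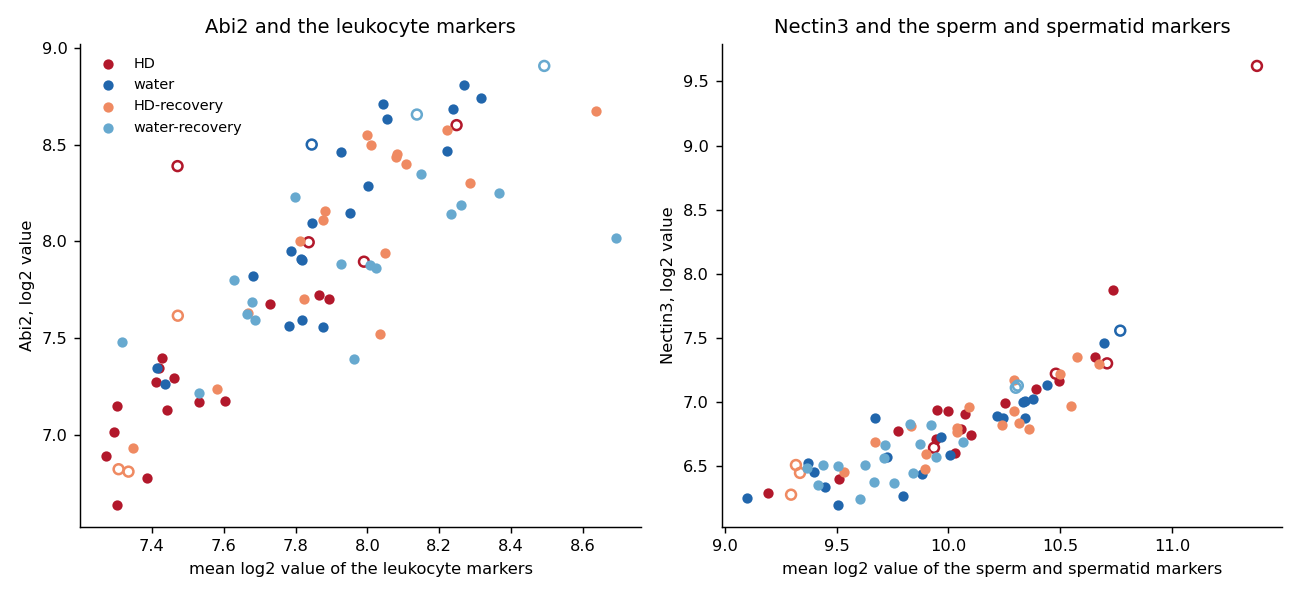
Log2 value of Abi2 against the mean log2 value of the 20 leukocyte markers, and of Nectin3 against that of the 19 sperm and spermatid markers, 1 point per array in the 4 groups, with open points for the arrays that stood apart. Both relations run through all 4 groups, and the HD array at 9.62 in the Nectin3 panel is replicate 5.

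The genes whose pattern over the 77 arrays was most like that of Abi2, with group means removed, were Ubn2 (r = 0.97), Mllt10 (0.965), Strbp (0.957), Kcmf1 (0.95) and Sgms1 (0.95), and without the arrays that stood apart these values were 0.959, 0.951, 0.95, 0.926 and 0.93. All are descriptions, since many probe sets follow the same component. Of the 5, Ubn2 was altered in HD against water arrays (log2 fold change −0.70, q = 0.036 from limma), while Strbp had −0.74 (q = 0.069), Mllt10 −0.61 (q = 0.064), Sgms1 −0.51 (q = 0.27) and Kcmf1 −0.25 (q = 0.86). After recovery all 5 lay between −0.11 and 0.0046.

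Of 88 further genes of the same junctions, 74 were measured, and none was altered in either comparison. In HD against water arrays 1 had an unadjusted p under 0.05 and was higher and 6 were lower, and their median log2 fold change was −0.02, beside 0.01 over all probe sets. The smallest p values among the lower ones were those of Itga6, the laminin-binding integrin of the apical ectoplasmic specialization (−0.18, SE 0.06, q = 0.224 from limma), and Cadm3, a relative of Cadm1 (−0.36, SE 0.14, q = 0.354). Among the higher ones they were Fscn3, a testis fascin (0.29, SE 0.13, q = 0.516), and Wasf1, a WAVE protein (0.14, SE 0.08, q = 0.67). Of the 17 measured genes of WAVE and Arp2/3 actin nucleation, the partners of Abi2, 15 had a log2 fold change below 0 (median −0.05) and none was altered. Over all probe sets 12774 of 29214 were below 0, and the list was not tested as a set. The median was 0.01 for the 11 further adhesion molecules, −0.02 for the 13 tight junction genes, 0.03 for the 7 gap junction genes, −0.01 for the 9 cadherins and catenins and 0.00 for the 17 genes of the apical ectoplasmic specialization.

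After recovery none of the 74 had even an unadjusted p under 0.05, and their log2 fold changes lay between −0.09 and 0.18 with a median of 0.00. Those with the smallest p were Cldn4, a claudin (0.12, q = 1 from limma), and Fscn3 (0.11, q = 1) among the higher, and Lamc3, a laminin chain (−0.09, q = 1), and Nectin1 (−0.07, q = 1) among the lower. The WAVE and Arp2/3 genes had 14 of 17 log2 fold changes above 0 (median 0.04), where 13561 of all 29214 probe sets were above 0. Fscn3 was thus the 1 gene among the smallest p values on the higher side in both comparisons, which share no arrays. It was picked by rank from 74 genes and was altered in neither comparison, so this is a description and not a repeated result.

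**Figure D5:**
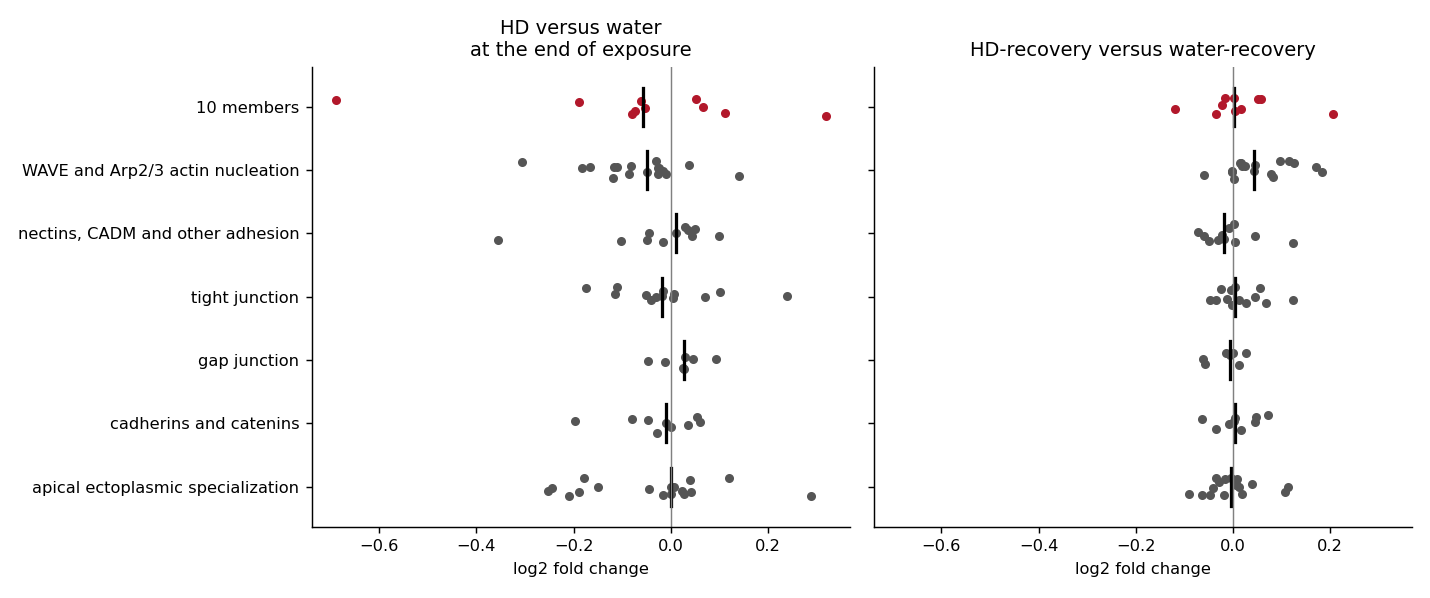
Log2 fold change (x axis) of the 10 members and of 74 further junction genes by list (y axis), for HD versus water and for HD-recovery versus water-recovery. Points are genes and vertical lines are medians. List medians lie between −0.06 and 0.04, and Abi2 at −0.69 is the point farthest from 0.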

How the data were processed

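The authors extracted cauda epididymal sperm RNA and hybridised it to Affymetrix Rat Gene 1.0 ST arrays. They deposited 1 table of normalized values, 1 column per array, taken as log2 from their range. For background correction and normalization the sources used here give no steps. All 77 arrays and 29214 probe sets were used, and no column was unmapped. The highest correlation between 2 arrays was 0.9855, so none was a repeat. Symbols came from the platform annotation, with current names from RefSeq. The members and lists were chosen with earlier results of these data known. Following the study's methods, limma 3.58.1 in R 4.3.3 compared each HD group with its control, with Storey's q over all probe sets. Contrasts across times used all 4 groups in 1 fit. An array stood apart where its median correlation with its group was over 3 MADs below the group's median. Named genes were all members, of the other junction genes those altered or else the 2 of smallest p on each side of both comparisons, the 5 genes most like Abi2, and the brightest and altered markers. Markers of sperm, spermatocytes, Sertoli cells, epididymal epithelium, leukocytes, fibroblasts and smooth muscle served as checks. Alternatives were other scalings, covariates, array weights and leaving out arrays. The fit was tested on simulated data drawn independently for each probe set. These lacked the variation that real arrays share and the arrays that stood apart, so that test does not cover their influence. The number of arrays limits the precision.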

Additional observations from a re-analysis of the deposited data

How the results depend on the processing

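At the end of exposure 1 member, Abi2, was altered with all arrays. The count was 0 with array medians centred (Abi2 −0.69, q = 0.0603 from limma). With the leukocyte covariate only Abi1 passed, beside 6.42% of all probe sets. The count was 3 with array weights, 4 without the arrays that stood apart and 2 with the sperm covariate. These stand beside 17.7%, 30.2% and 3.91% of all probe sets. The count was 0 to 1 when 1 array was left out. Abi2 then lay between −0.75 and −0.64 and was altered in 33 of 39 fits. Its call was lost when the array left out was HD replicate 2 or 12 or water replicate 3, 7, 9 or 10 (q 0.0504 to 0.0527). Other members changed sign. With the leukocyte covariate Abi1 was 0.27, Cadm1 0.0098, Cdh2 −0.15 and Espn 0.19, and Tjp1 was −0.092 with array weights, −0.10 when the arrays that stood apart were left out, −0.0061 with the sperm covariate and −0.02 to 0.11 with 1 array left out.

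After recovery the count of 0 became 1 with array weights and 1 without the arrays that stood apart, beside 1.8% and 13.1% of all probe sets. Sign changes concerned members close to 0. Under array weights Abi2 was 0.11, Gja1 −0.0103, Cdh2 −0.016 and Espn 0.050, and without the arrays that stood apart these were 0.22, −0.018, −0.054 and 0.084. With the leukocyte covariate they were 0.079, −0.00068, −0.026 and 0.036, and with the sperm covariate Abi1 was −0.031, Cadm1 −0.082 and Tjp1 −0.0014. With 1 array left out Abi2 lay between −0.078 and 0.023, Cadm1 between −0.022 and 0.026, Gja1 between −0.0063 and 0.034, Cdh2 between −0.014 and 0.025 and Espn between −0.044 and 0.019.

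The count for the difference of the HD effects was 0, but 4 with array weights, 6 when the arrays that stood apart were left out and 1 once the first principal component was a covariate. These stand beside 33.7%, 56.8% and 1.22% of all probe sets. The count for HD-recovery against HD was 0, but 4, 5 and 1 under these settings and 1 with the sperm covariate. Beside these, 45.2%, 57.4%, 4.73% and 2.87% of all probe sets were altered. The first principal component was computed with the group means removed, so as a covariate it cannot adjust a difference between groups. With it Abi2 stayed at −0.65 and 0.48, and only the spread left for the test became smaller. Without HD replicate 5 Abi2 was −0.71 (q = 0.552) and 0.54 (q = 0.103) in these contrasts, not altered. The causes were not tested.

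Replicate numbers do not pair rats, which were assigned at random: same-numbered HD and water arrays correlated from −0.58 to 0.65 (median 0.03, 8 of 19 pairs over 0.1). With the replicate number as a block Abi2 was −0.70 (q = 0.0335), no member's call changed, and Cadm1 was −0.019 after recovery. The mean over several probe sets was not run, since each member has 1, and Gja1 had no value under the brightness filter. Dim probe sets, unknown background steps and the spread between arrays limit small differences, and the sperm covariate and the fits of HD replicate 5 across times were chosen after the data had been seen.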

Other observations

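The fibroblast and connective tissue markers had 1 of 9 altered in arrays labelled HD against those labelled water, Dcn (decorin, a matrix proteoglycan), with a log2 fold change of −1.09 (q = 0.00917 from limma), a direction that is the reverse of the one in the study, and their mean was 7.09 ± 0.19 in HD arrays and 7.29 ± 0.18 in water arrays. Over all arrays, with group means removed, they had r = 0.03 and rho = 0.08 with Abi2 (permutation p = 0.81 and 0.48). The smooth muscle and endothelium markers, none of 9 altered, ran against Abi2 (r = −0.69, rho = −0.69, permutation p = 1e-05 for both, adjusted p = 4.7e-05 for both over 70 relations, r = −0.66 without the 2 arrays farthest from their median and −0.74 to −0.66 within each group), while their mean was 6.67 ± 0.07 in both HD and water arrays. Clu, the altered Sertoli cell marker, was lower in HD-recovery than in HD arrays (log2 fold change −1.12, q = 0.00137), and Ccr2 was higher (0.47, q = 0.0219). None of the 12 spermatocyte markers was altered, and their mean was 6.64 ± 0.42 in HD arrays and 6.52 ± 0.09 in water arrays. The brightest markers of the remaining lists were Krt18 of the Sertoli cell list, Adam7 of the epididymal list, Acta2 of the smooth muscle list, Tex101 of the spermatocyte list and Dcn of the fibroblast list.

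HD-recovery replicate 19, which did not stand apart, held the highest epididymal epithelium mean of all arrays, 8.07, where the next HD-recovery array had 7.04, and it was also the highest HD-recovery array for Abi2, Abi1, Nectin2, Tjp1 and Espn.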
